A study of Mus musculus with 18 samples.

Results

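Endotoxin, the lipopolysaccharide of gram-negative bacteria, is read in the liver by a chain of proteins that runs from cell surface receptors to the transcription factor NF-kappaB and to the inflammasome. The list held 41 genes of that chain, named for their known roles and with earlier results of these data in view, and 40 of them had a value in liver RNA from 18 mice, out of 15052 genes in all. *Ticam2* was not analysed here. All 40 genes entered the tests whatever their level.

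Lipopolysaccharide that leaks from the gut reaches the liver through the portal vein. The plasma protein LBP, which hepatocytes make, passes it to CD14, and CD14 hands it to the complex of TLR4 and MD-2 on Kupffer cells and other macrophages. The adaptors MyD88 and TRIF then relay the signal through IRAK kinases and TRAF6 to the kinases that free NF-kappaB from its inhibitors. NF-kappaB turns on cytokine, adhesion and inhibitor genes, and it also primes the NLRP3 inflammasome, which activates caspase-1, gasdermin D, IL-1beta and IL-18. Gut-derived endotoxin and this pathway are long-standing themes in alcohol-associated liver disease.

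The mice came from the chronic-plus-binge ethanol model and were compared by diet and by the presence of apolipoprotein E, a lipid carrier of hepatocytes and macrophages. The WT mice were 4 pair-fed and 5 EtOH-fed animals, and the *Apoe* KO mice were 5 pair-fed and 4 EtOH-fed animals, aged 10 to 12 weeks and all labelled female. After 5 days of acclimation, EtOH-fed mice had 10 days of liquid diet with 5% (v/v) ethanol and, on day 11, a gavage of 5 g/kg ethanol, whereas pair-fed mice had an isocaloric diet and a gavage of 9 g/kg dextrin-maltose. Livers were taken 9 h after the gavage. The WT strain was C57BL/6J, and the knockout was present in every cell from conception, so that a difference between genotypes cannot be assigned to a cell type of the liver.

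The deposited values are read counts per gene that the authors had scaled to nearly the same total in each mouse, between 32267493 and 32292618, and they are called scaled read counts below. The spacing of low values gave the number of reads behind them in 8 of the 18 mice, with the lowest number, 5.61 M, for the first pair-fed WT mouse and the highest, 13.53 M, for the second EtOH-fed *Apoe* KO mouse. In those mice, 1 read stood for between 2.39 and 5.76 units, so differences of a few units in the rarest transcripts (*Tnf*, *Tlr8* and *Tlr9*) were not detectable. *Apoe* itself lay between 8586 and 108651 in the 9 KO mice and between 611230 and 798431 in the 9 WT mice, without overlap. EtOH-fed *Apoe* KO mouse 1 went against its label as a female: *Xist*, the X-inactivation transcript, was 826 there and 15227 to 30379 in the other mice, and the Y-linked *Ddx3y* was 1077 there and 2 to 118 elsewhere. Counts of the listed genes are therefore also given without that mouse. Hepatocyte markers were high in every mouse, with a summed scaled read count of 10 markers between 2636283 and 4464927.

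Tests between groups used limma, with its trend option, on values transformed as log2(value + 1). Fold changes are differences on that scale with their standard error (SE), each p was corrected by Benjamini-Hochberg over all 15052 genes, and a gene was called where the adjusted p was under 0.05. Replicates were separate mice. Among mice fed EtOH, the median gene was 0.11 higher on the log2 scale in the *Apoe* KO genotype than in WT, and 0.13 higher in EtOH-fed than in pair-fed *Apoe* KO mice. Rescaling by median-of-ratios size factors moved these medians to −0.02 and 0. Over all genes, the split of higher and lower calls between the EtOH-fed genotypes then went from 639 and 67 (90.5% higher) to 380 and 126 (75.1%), that of the diet comparison in *Apoe* KO mice from 2446 and 1042 (70.1%) to 1656 and 1607 (50.8%), and that of the interaction from 392 and 36 (91.6%) to 294 and 84 (77.8%). Calls that depend on this rescaling are named below.

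Per kilobase of exon, *Nfkbia*, which encodes the NF-kappaB inhibitor IkappaBalpha, had the highest mean level of the 40 genes in pair-fed WT liver, at 1300 scaled reads per kb. It was followed by *Tnfrsf1a*, the main TNF receptor gene, at 772 and by *Lbp* at 609 per kb. At the other end, *Tlr4* stood at 8.1, *Tlr8* at 7.39 and *Tlr9* at 3.02 per kb. The level of *Lbp* was 1250 per kb in EtOH-fed *Apoe* KO mice, above that of *Nfkbia*, which stood at 913 per kb in the same livers.

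Sequence from the start sites is shown for the 3 genes that were called in at least 1 comparison and that carry letters of the kappaB consensus, the site that NF-kappaB is known to bind. Windows of 300 bases, from 250 before to 50 after the start, were taken from RefSeq on GRCm38.p6 and were found for 30 of the 40 genes. Both strands were searched, and capitals mark the matches. No window was found for *Cd14*, *Gsdmd*, *Lbp*, *Ly96*, *Nfkb1*, *Nfkbiz*, *Relb*, *Tlr4*, *Tlr7* and *Vcam1*. The windows are chr3:83841559-83841858 on the minus strand for *Tlr2*, chr11:59541319-59541618 on the plus strand for *Nlrp3* and chr12:55492598-55492897 on the minus strand for *Nfkbia*.
Tlr2: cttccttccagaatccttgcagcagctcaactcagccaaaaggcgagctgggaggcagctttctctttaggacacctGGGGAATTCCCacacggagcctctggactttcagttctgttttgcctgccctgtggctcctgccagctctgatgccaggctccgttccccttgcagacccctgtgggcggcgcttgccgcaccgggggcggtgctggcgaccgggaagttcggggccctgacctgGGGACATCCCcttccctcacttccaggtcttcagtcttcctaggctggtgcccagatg
Nlrp3: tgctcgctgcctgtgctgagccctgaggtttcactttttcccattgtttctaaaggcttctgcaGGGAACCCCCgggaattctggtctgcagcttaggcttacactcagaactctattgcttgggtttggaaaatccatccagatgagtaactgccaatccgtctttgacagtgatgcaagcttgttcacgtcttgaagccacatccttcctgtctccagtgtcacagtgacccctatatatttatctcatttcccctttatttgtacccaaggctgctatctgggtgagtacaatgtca
Nfkbia: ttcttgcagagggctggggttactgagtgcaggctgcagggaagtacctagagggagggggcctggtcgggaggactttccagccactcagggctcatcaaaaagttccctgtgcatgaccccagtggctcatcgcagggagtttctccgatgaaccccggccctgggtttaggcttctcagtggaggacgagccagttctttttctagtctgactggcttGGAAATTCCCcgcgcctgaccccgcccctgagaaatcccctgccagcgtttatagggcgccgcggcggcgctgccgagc
The *Tlr2* window held overlapping matches that began 173 and 172 bases before the start and a separate match 8 bases before it. These distances hold for the RefSeq start only. In the GENCODE annotation *Tlr2* begins further upstream, at chr3:83841767 within the window. For *Tlr2* and for the *Nlrp3* window shown, the bases just after the RefSeq start were not found in an annotated transcript of the gene. The match of *Nfkbia* began 29 bases before the start. The match of *Nlrp3* began 186 bases before the first of its RefSeq starts, whereas the window of its other start, chr11:59542436-59542735, held no match. *Nfkb2*, *Nfkbie*, *Tlr3* and *Tnfaip3* also held a match and were not called in any comparison. The windows of other called genes, such as *Rela*, *Ticam1* and *Icam1*, held none. In all, 9 of the 36 windows of listed genes held a match (25.0%), against 4.51% of the 32851 windows in the table. Several of the 9 windows belong to *Nfkb2*, and some of those overlap and share a match. Counted by gene, 7 of the 30 listed genes with a window held a match (23.3%), against 5.14% of all genes with a window. These letters describe the sequence and were not measured to be bound in these livers.

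The first comparison asked how the chain differed between genotypes after ethanol. In EtOH-fed *Apoe* KO mice, 7 of the 40 genes were higher than in EtOH-fed WT mice and 0 were lower. The 7 were the endotoxin co-receptor *Cd14*, the lipoprotein receptor *Tlr2*, the RNA receptors *Tlr7* and *Tlr13*, the NF-kappaB subunit *Rela*, the inflammasome sensor *Nlrp3* and the adhesion gene *Vcam1*. That is 17.5% of the list, where 4.25% of all genes were called higher and 0.445% were called lower. At an unadjusted p under 0.05, limma gave 16 of the 40 higher and 1 lower. Of all 15052 genes, 2426 (16.1%) were higher and 419 (2.78%) lower by that measure. The median log2 fold change was 0.38 over the 40 genes and 0.11 over all genes, and it was 0.26 and −0.02 after rescaling. In 8 of the 40 genes every *Apoe* KO mouse lay above every WT mouse, as it did in 7.12% of all genes.

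**Figure D1:**
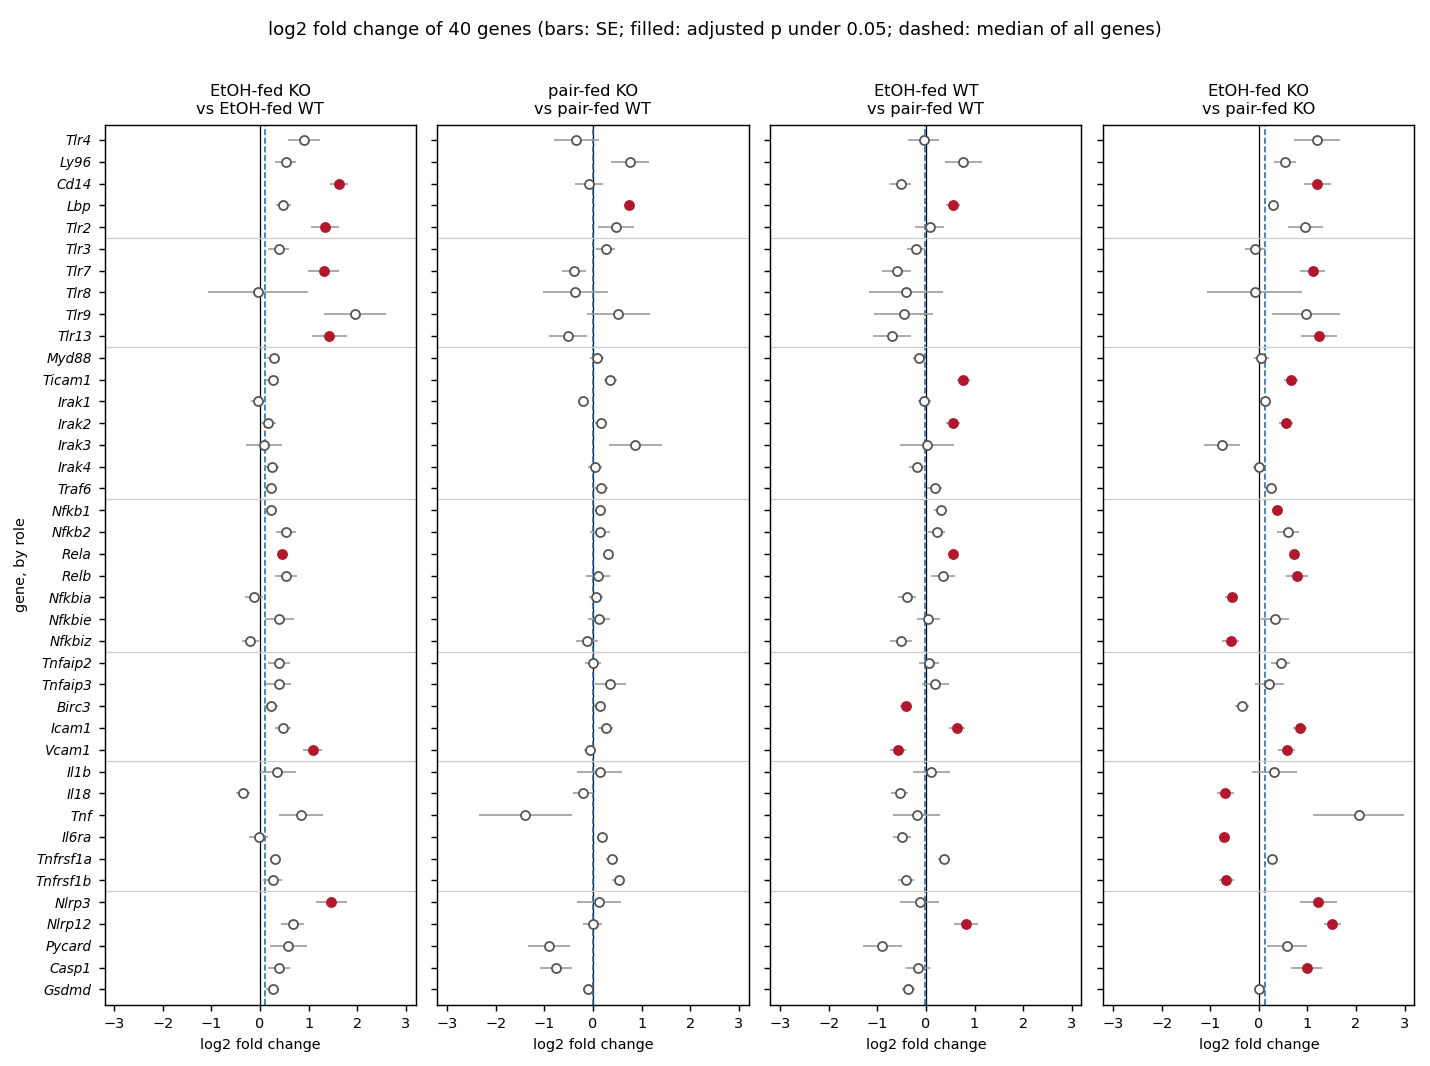
log2 fold change of each of the 40 genes (x axis, log2 of scaled read count + 1) in 4 comparisons, with genes on the y axis grouped by role, bars for the SE, filled points for an adjusted p under 0.05 and a dashed line at the median of all genes. The 7 filled points of the first panel are all to the right of 0, and the last panel has 13 filled points to the right and 5 to the left.

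Among the surface receptors, *Cd14* showed the lowest adjusted p of the list in this comparison. It had 110, 170, 119, 139 and 114 scaled reads in the 5 EtOH-fed WT mice and 409, 327, 520 and 365 in the 4 EtOH-fed *Apoe* KO mice. The lowest KO mouse stood well above the highest WT mouse. The log2 fold change was 1.63 (SE 0.19, adjusted p = 0.000807 by limma), a 3.09-fold difference. It remained called after rescaling (adjusted p = 0.00139 by limma) and without any mouse in turn, with log2 fold changes from 1.5 to 1.73 and an adjusted p of at most 0.00522 over its alternatives.

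*Tlr2*, the receptor for bacterial lipoproteins whose start site is shown above, had 61, 96, 88, 131 and 53 scaled reads in EtOH-fed WT and 161, 162, 274 and 261 in EtOH-fed *Apoe* KO mice. All 4 KO mice were above the WT mice, and mice 4 and 5 were the highest. Its log2 fold change was 1.34 (SE 0.29, adjusted p = 0.0183 by limma). *Tlr4*, the signalling receptor for lipopolysaccharide, had 36, 48, 38, 38 and 46 scaled reads in WT and 59, 50, 160 and 77 in *Apoe* KO mice. These groups did not overlap either, but KO mouse 4 stood far above the others, and the log2 fold change of 0.91 (SE 0.33) had an adjusted p of 0.149 by limma. *Ly96*, which encodes the TLR4 partner MD-2, and *Lbp* had log2 fold changes of 0.53 and 0.48, with adjusted p-values of 0.198 and 0.0927 by limma, and their groups overlapped.

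The endosomal receptors sense nucleic acids taken up by the cell. *Tlr7*, a receptor for single-stranded RNA (chrX:167304929-167330558), had 49, 64, 32, 73 and 31 scaled reads in EtOH-fed WT and 130, 79, 160 and 119 in EtOH-fed *Apoe* KO mice, with the lowest KO mouse just above the highest WT mouse. The log2 fold change was 1.31 (SE 0.32, adjusted p = 0.0347 by limma). *Tlr13*, a mouse receptor for bacterial ribosomal RNA that is also X-linked (chrX:106143204-106160493), had 41, 57, 21, 75 and 44 scaled reads in WT and 99, 84, 197 and 123 in KO mice, again without overlap. Its log2 fold change was 1.42 (SE 0.36, adjusted p = 0.0425 by limma). The DNA receptor *Tlr9* had 13, 9, 7, 4 and 4 scaled reads in WT and 23, 43, 86 and 8 in KO mice, so the groups overlapped and a log2 fold change of 1.96 (SE 0.64) did not pass the test (adjusted p = 0.106 by limma). *Tlr3*, the receptor for double-stranded RNA, and *Tlr8* had log2 fold changes of 0.38 and −0.04 and did not pass. Among these KO mice, *Tlr8* was listed at 74 in mouse 4 and at 0 in mouse 5, for which 3.85 units made up 1 read.

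Both calls among the endosomal receptors depended on the scaling and on single mice. After rescaling, the adjusted p was 0.054 for *Tlr7* and 0.06 for *Tlr13* by limma. Without EtOH-fed *Apoe* KO mouse 1, the mouse that went against its sex label, the values were 0.0745 and 0.0602 by limma, with log2 fold changes of 1.27 and 1.51.

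**Figure D2:**
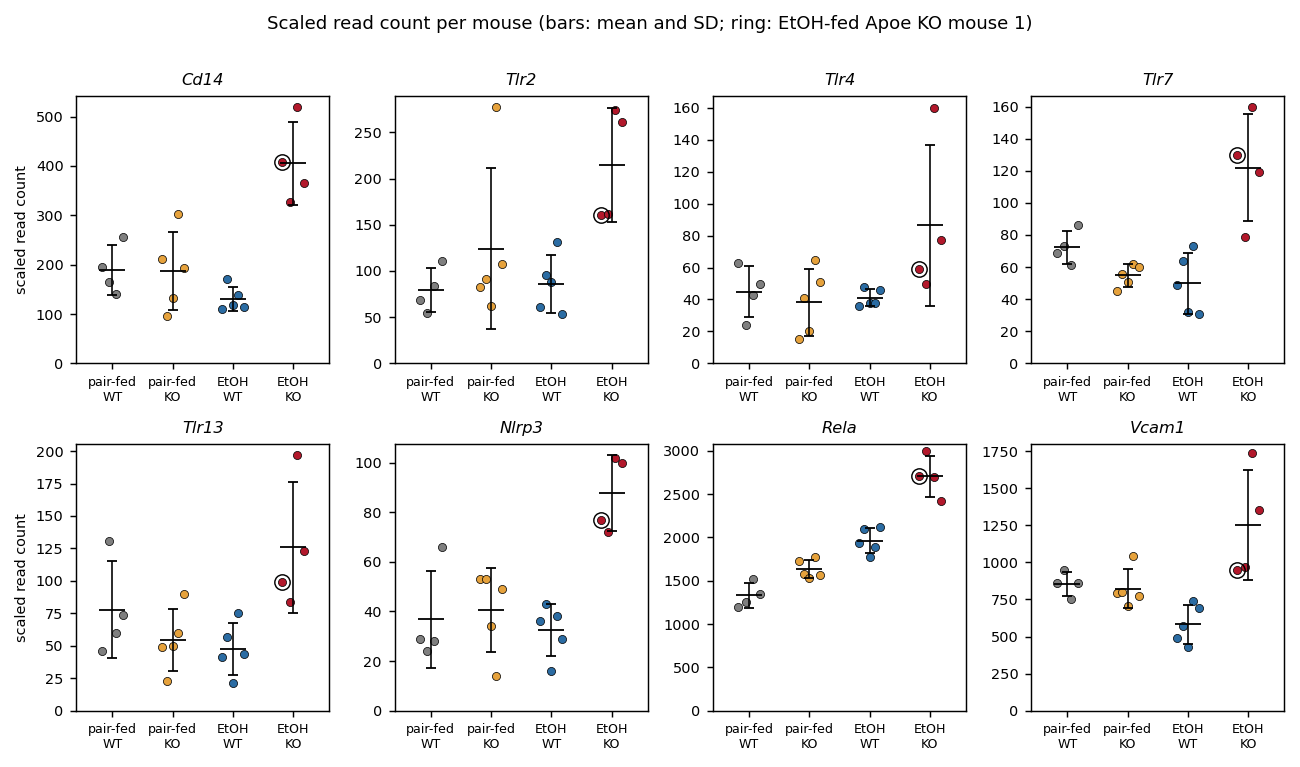
Scaled read count (y axis, linear from 0) of 8 genes in each of the 18 mice by group, with bars for the mean and SD and a ring around EtOH-fed *Apoe* KO mouse 1. In each panel the 4 EtOH-fed *Apoe* KO mice lie above the 5 EtOH-fed WT mice, and for *Tlr4* mouse 4, at 160, stands apart from the other 3.

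None of the 7 adaptors and kinases was called between the EtOH-fed genotypes. Their log2 fold changes lay between −0.05 for *Irak1* and 0.28 for *Myd88*, with 0.26 for *Ticam1*, 0.24 for *Irak4*, 0.22 for *Traf6*, 0.17 for *Irak2* and 0.08 for *Irak3*, the gene of a kinase-dead inhibitor of the pathway. *Myd88*, the adaptor shared by most Toll-like receptors, had 428 to 503 scaled reads in the 5 WT and 473 to 654 in the 4 KO mice. At an unadjusted p under 0.05, limma gave 0 of the 7 higher and 0 lower.

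Of the 7 genes of NF-kappaB subunits and the IkappaB family, *Rela* alone was called. *Rela* encodes the transactivating subunit p65 and had 1934, 2094, 1773, 1886 and 2118 scaled reads in EtOH-fed WT mice. In EtOH-fed *Apoe* KO mice it had 2712, 2993, 2702 and 2415, all above the WT mice. The log2 fold change was 0.46 (SE 0.10, adjusted p = 0.0209 by limma), and after rescaling it was 0.34 (adjusted p = 0.137 by limma) and not called. *Relb*, *Nfkb2*, *Nfkbie* and *Nfkb1* had log2 fold changes of 0.54, 0.53, 0.40 and 0.22, and the IkappaB family genes *Nfkbia* and *Nfkbiz* had −0.12 and −0.20. *Relb* lies on chromosome 7, 66.7 kb from *Apoe*, so the strain background around the knockout and the knockout itself cannot be told apart for it.

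Among the target and feedback genes, *Vcam1*, which encodes the adhesion molecule that binds monocytes and lymphocytes, had 487, 570, 430, 738 and 690 scaled reads in EtOH-fed WT mice. The EtOH-fed *Apoe* KO mice had 949, 967, 1736 and 1353, and every one exceeded the WT mice. Its log2 fold change was 1.08 (SE 0.20, adjusted p = 0.00958 by limma), with an adjusted p of at most 0.036 over the alternatives. *Icam1*, the adhesion molecule for neutrophils, had a log2 fold change of 0.47 (adjusted p = 0.111 by limma). *Tnfaip2*, *Tnfaip3* and *Birc3* had 0.39, 0.38 and 0.22 and did not pass. *Tnfaip3* encodes a deubiquitinase that shuts the pathway off, and *Birc3* a ubiquitin ligase of the TNF receptor complex.

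The cytokine genes did not pass the test between EtOH-fed genotypes. *Tnf* had 19, 9, 20, 8 and 21 scaled reads in WT and 21, 43, 29 and 19 in *Apoe* KO mice, with overlapping groups and a log2 fold change of 0.85 (SE 0.45, adjusted p = 0.341 by limma). *Il1b* had 33, 79, 43, 39 and 83 in WT and 75, 33, 82 and 92 in KO mice, and its log2 fold change was 0.35 (SE 0.38, adjusted p = 0.689 by limma). *Tnf* is among the rarest transcripts of the list, so smaller differences in it were not detectable. *Il1b* was less rare, at 29.1 scaled reads per kb of exon in EtOH-fed WT mice against 9.4 for *Tnf*. Its SE of 0.38 leaves smaller differences undecided. *Il18*, which hepatocytes and macrophages express, had 296, 262, 282, 250 and 286 scaled reads in WT and 245, 224, 192 and 204 in KO mice. Every KO mouse lay below every WT mouse, yet the log2 fold change of −0.35 (SE 0.15) had an adjusted p of 0.212 by limma. The receptor genes *Tnfrsf1a*, *Tnfrsf1b* and *Il6ra* had log2 fold changes of 0.30, 0.26 and −0.03.

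Of the 5 inflammasome and pyroptosis genes, the sensor *Nlrp3* was called. It had 36, 43, 16, 38 and 29 scaled reads in EtOH-fed WT and 77, 72, 102 and 100 in EtOH-fed *Apoe* KO mice, and the groups were clearly apart. The log2 fold change was 1.47 (SE 0.32, adjusted p = 0.0218 by limma), and it remained called after rescaling (adjusted p = 0.0359 by limma). The adaptor *Pycard*, the protease *Casp1* and the pore-forming *Gsdmd* had log2 fold changes of 0.58, 0.39 and 0.26 with adjusted p-values of 0.46, 0.4 and 0.357 by limma. *Nlrp12*, an NLR gene described as a brake on NF-kappaB, had a log2 fold change of 0.67 (adjusted p = 0.121 by limma).

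How many of the 7 calls stood depended on single mice. Without EtOH-fed *Apoe* KO mouse 1, 5 of the 40 genes were called higher, and *Tlr7* and *Tlr13* were lost. Only 2 were called without EtOH-fed *Apoe* KO mouse 4, namely *Cd14* (log2 fold change 1.5) and *Vcam1* (0.91). Without EtOH-fed WT mouse 1, *Cd14*, *Nlrp3* and *Vcam1* stood, which is 3 of the 7. Without EtOH-fed *Apoe* KO mouse 5, *Cd14*, *Rela* and *Vcam1* stood, and 4 of the 40 genes were called, 1 of them outside the 7. Rescaling left 4, namely *Cd14*, *Tlr2*, *Nlrp3* and *Vcam1*. Calls over all genes fell in the same settings, from 706 to 620 without KO mouse 1 and 353 without KO mouse 4. They fell to 327 without WT mouse 1, to 408 without KO mouse 5 and to 506 after rescaling.

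Markers of macrophages moved with these genes. Of the 13 Kupffer cell markers, 11 were higher in the KO mice of this comparison and 0 were lower, with a median log2 fold change of 1.29. Their summed scaled read count was 13512, 20049, 12487, 16913 and 16656 in the WT mice and 41275, 23648, 31941 and 36431 in the KO mice, so that the groups did not overlap. Of the 13 markers of monocytes and recruited macrophages, 8 were higher and 0 lower, with sums from 4406 to 6275 in WT and from 9069 to 17220 in KO mice. None of the 26 markers of these lists was at 0 in any mouse. The part of the macrophage markers in the differences of *Cd14*, the Toll-like receptors and *Nlrp3* was not tested, and in whole liver more cells of a type and more RNA per cell cannot be told apart.

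Of 15 listed neutrophil markers, 6 were analysed here, and 1 of them, *Fpr1*, was higher (log2 fold change 1.31, adjusted p = 0.0386 by limma). Their sum was 240 to 306 in EtOH-fed WT and 287 to 689 in EtOH-fed *Apoe* KO mice, and *Ltf* was at 0 in 2 of the 18 mice. Stellate cell and fibroblast markers had 3 of 11 higher, with sums from 11969 to 19445 in WT and from 19887 to 35541 in KO mice. Biliary markers had 1 of 6 higher, namely *Krt19*, with a log2 fold change of 2.05 (adjusted p = 0.0445 by limma). *Fpr1* and *Krt19* are named after their values were seen. Endothelial, hepatocyte, B cell, T and NK cell and dendritic cell markers had 0 called in this comparison by limma. Without EtOH-fed *Apoe* KO mouse 1, 9 Kupffer cell markers and 8 markers of the monocyte and macrophage list were higher, and 0 neutrophil markers were.

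**Figure D3:**
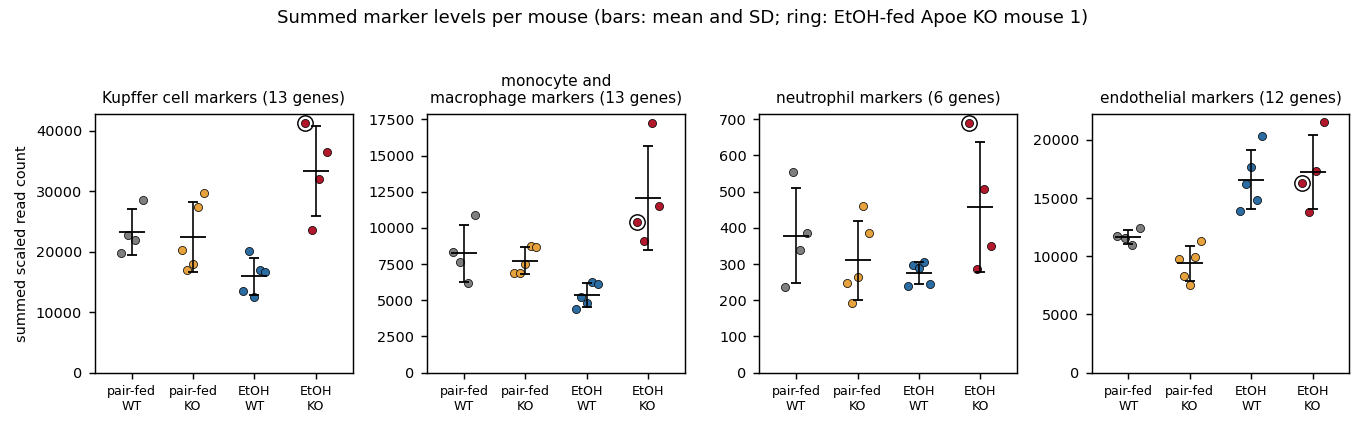
Summed scaled read count (y axis, linear from 0) of 4 marker lists in each of the 18 mice by group, with bars for the mean and SD and a ring around EtOH-fed *Apoe* KO mouse 1. Kupffer cell and monocyte marker sums of the 4 EtOH-fed *Apoe* KO mice lie above those of the 5 EtOH-fed WT mice, while the endothelial sums of these groups overlap.

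Other genes of the pathway were taken from 5 further lists with 135 genes, of which 113 were analysed here. Between the EtOH-fed genotypes 18 of the 113 (15.9%) were called higher and 0 lower, against 4.25% and 0.445% of all genes, with a median log2 fold change of 0.36. These 18 were counted with the deposited scaling and all mice, and some lay close to the threshold, with an adjusted p up to 0.0432 by limma. Over all genes, higher calls fell from 639 to 380 after rescaling. How many of the 18 stood after rescaling or without EtOH-fed *Apoe* KO mouse 1 is not given here. Of the 18, 8 are on the list of other receptors and sensors. The lowest adjusted p belonged to *Ly86*, the partner of the TLR4 homologue CD180, with a log2 fold change of 1.41 (SE 0.16, adjusted p = 0.000807 by limma). *Il18bp*, which encodes the soluble inhibitor of IL-18, had 1.09 (SE 0.15, adjusted p = 0.00211 by limma). The interferon-inducible DNA sensor gene *Ifi204* and the interferon regulator *Irf7* had log2 fold changes of 1.29 and 1.01, with adjusted p-values of 0.00246 and 0.00355 by limma. *Hsp90b1*, the chaperone that folds Toll-like receptors, had 0.80 (adjusted p = 0.00358 by limma), and *Nfkbib*, a further NF-kappaB inhibitor, had 0.79 (adjusted p = 0.00471 by limma).

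The second comparison asked whether the genotypes already differed on the control diet. There, 1 of the 40 genes was higher in *Apoe* KO mice and 0 were lower, where 0.87% of all genes were higher and 0.864% lower. By an unadjusted p under 0.05, limma gave 5 of the 40 higher and 1 lower. Of all 15052 genes, 1589 (10.6%) were higher and 1402 (9.31%) lower by that measure. The gene was *Lbp*, which had 2772, 3363, 2840 and 2780 scaled reads in the 4 pair-fed WT mice and 5445, 4490, 5191, 4848 and 4712 in the 5 pair-fed *Apoe* KO mice. Every KO mouse lay above every WT mouse. The log2 fold change was 0.75 (SE 0.09, adjusted p = 0.000934 by limma), with an adjusted p of at most 0.00846 over the alternatives.

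None of the 7 genes called between the EtOH-fed genotypes was called here. On the log2 scale, *Tlr13* had −0.52, *Tlr7* −0.39, *Cd14* −0.09, *Vcam1* −0.06, *Nlrp3* 0.12, *Rela* 0.30 and *Tlr2* 0.47. *Tlr4* had −0.34 (SE 0.46, adjusted p = 0.711 by limma), and the adjusted p was 0.885 for *Cd14* (SE 0.29) and 0.904 for *Nlrp3* (SE 0.45) by limma. *Cd14* had 196, 164, 140 and 257 scaled reads in pair-fed WT and 212, 95, 132, 302 and 193 in pair-fed *Apoe* KO mice, with full overlap. *Il1b* and *Tnf* had log2 fold changes of 0.14 (SE 0.46) and −1.39 (SE 0.96), with adjusted p-values of 0.886 and 0.44 by limma. The value for *Tnf* rests on 0, 4, 5, 62 and 6 scaled reads in the KO mice, against 12, 21, 12 and 24 in WT mice. In the KO mouse listed at 0, a floor of 3 reads corresponded to 11.4 units.

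The groups of *Ticam1*, *Rela* and *Tnfrsf1b* did not overlap either, with all KO mice higher, and their log2 fold changes were 0.36, 0.30 and 0.53. The adjusted p-values were 0.163, 0.117 and 0.0519 by limma, so none of these genes was called. The share of all genes without overlap was not computed for this comparison. *Tnfrsf1b*, the gene of the second TNF receptor, had 1222, 1038, 1078 and 928 scaled reads in WT and 1304, 1385, 1973, 1672 and 1427 in KO mice. Of the 113 further pathway genes, 0 were called by limma, and 12 were higher and 11 lower at an unadjusted p under 0.05. Kupffer cell marker sums overlapped, with 19752 to 28528 in WT and 16977 to 29724 in KO mice. Among the 13 Kupffer cell markers, 0 were higher and 1 was lower, namely *Cd163* (log2 fold change −1.91, adjusted p = 0.000541 by limma). Of the 13 monocyte and macrophage markers, *Gpnmb* was higher (2.03, adjusted p = 0.0353 by limma) and 0 were lower. Of the 12 endothelial markers, *Clec4g* was lower (−0.66, adjusted p = 0.00998 by limma) and 0 were higher.

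The third comparison gave the response to ethanol in WT mice. After ethanol, 6 of the 40 genes were higher and 2 were lower, which is 15% and 5% of the list, against 6.19% and 6.52% of all genes. The 6 were *Ticam1*, *Rela*, *Icam1*, *Lbp*, *Irak2* and *Nlrp12*, and the 2 were *Vcam1* and *Birc3*. The median log2 fold change of the 40 genes was −0.09.

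*Ticam1*, which encodes TRIF, the adaptor that TLR3 and TLR4 share, had 415, 405, 356 and 341 scaled reads in pair-fed and 654, 730, 710, 547 and 594 in EtOH-fed WT mice. All EtOH-fed mice were above the pair-fed ones, with a log2 fold change of 0.77 (SE 0.13, adjusted p = 0.00228 by limma). *Irak2*, a kinase that prolongs signalling from the receptors, had 715, 694, 582 and 753 in pair-fed and 847, 1139, 1363, 920 and 866 in EtOH-fed mice, a log2 fold change of 0.56 (SE 0.15, adjusted p = 0.0272 by limma). Its groups also did not overlap.

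*Rela* had 1193, 1254, 1522 and 1350 scaled reads in pair-fed WT mice, below each of the 5 EtOH-fed WT mice given above. The log2 fold change was 0.56 (SE 0.10, adjusted p = 0.00413 by limma). *Icam1* had 328, 408, 313 and 363 in pair-fed and 413, 716, 565, 549 and 530 in EtOH-fed WT mice, and the lowest EtOH-fed mouse was just above the highest pair-fed mouse. Its log2 fold change was 0.64 (SE 0.16, adjusted p = 0.0191 by limma).

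*Nlrp12* had 1441, 1111, 861 and 1723 scaled reads in pair-fed and 1985, 2841, 3409, 2068 and 1323 in EtOH-fed WT mice. EtOH-fed mouse 5 lay within the pair-fed range, and the log2 fold change was 0.83 (SE 0.25, adjusted p = 0.0456 by limma). *Lbp* had 5258, 5004, 4009, 4504 and 3117 in EtOH-fed WT mice, with 1 mouse inside the pair-fed range, and a log2 fold change of 0.56 (SE 0.14, adjusted p = 0.023 by limma). Over 16 alternatives, *Nlrp12* lost its call in 8 (adjusted p up to 0.116 by limma). *Lbp* and *Irak2* each lost theirs in 5 of 16 (adjusted p up to 0.0635 and 0.0718 by limma).

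*Vcam1* and *Birc3* were the genes called lower. *Vcam1* had 864, 946, 750 and 862 scaled reads in pair-fed WT mice, all above the EtOH-fed WT mice, and a log2 fold change of −0.58 (SE 0.16, adjusted p = 0.0312 by limma). *Birc3* had 570, 490, 504 and 493 in pair-fed and 392, 413, 359, 359 and 392 in EtOH-fed WT mice, without overlap, and a log2 fold change of −0.42 (SE 0.12, adjusted p = 0.0297 by limma). *Vcam1* and *Birc3* each lost their call without pair-fed mouse 1 (adjusted p = 0.0651 and 0.0731 by limma), and 0 genes were then called lower, as was so without pair-fed mouse 2 and without EtOH-fed mouse 3. Without pair-fed mouse 3 or without EtOH-fed mouse 2, 3 genes were called higher. Calls over all genes without these mice are not given here.

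The receptor and cytokine genes did not pass in WT mice. *Cd14* had a log2 fold change of −0.52 (SE 0.21, adjusted p = 0.128 by limma). *Tlr4* had −0.05 (SE 0.32), *Nlrp3* −0.13 (SE 0.40), *Il1b* 0.11 (SE 0.38) and *Tnf* −0.19 (SE 0.48), with adjusted p-values of 0.934, 0.869, 0.881 and 0.833 by limma. The 5 endosomal receptors all had negative values, from −0.20 for *Tlr3* to −0.70 for *Tlr13*, and none was called. *Il18* had 594, 371, 371 and 314 scaled reads in pair-fed WT mice, all above the EtOH-fed WT mice, with a log2 fold change of −0.54 (adjusted p = 0.0584 by limma). Among Kupffer cell markers 0 were higher and 5 lower, whereas 8 of 12 endothelial markers were higher and 0 lower. The summed endothelial markers ran from 10937 to 12421 in pair-fed and from 13858 to 20296 in EtOH-fed WT mice, and their part in the values of *Icam1* and *Vcam1*, which endothelium also expresses, was not tested.

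Of the 113 further pathway genes, 4 (3.54%) were higher and 13 (11.5%) lower after ethanol in WT mice, against 6.19% and 6.52% of all genes. *Irf7* and *Zbp1*, a nucleic acid sensor of cell death, had log2 fold changes of −0.90 and −1.52, with adjusted p-values of 0.000791 and 0.0026 by limma. *Il18bp* and the NLR gene *Nlrc5* were lower as well, with −0.78 and −0.87. *Ikbkg*, which encodes the regulatory subunit NEMO of the IkappaB kinase, was higher, with a log2 fold change of 0.85 (adjusted p = 0.00302 by limma), as was the deubiquitinase gene *Otud7b* with 0.51 (adjusted p = 0.0038 by limma).

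The fourth comparison gave the response to ethanol in *Apoe* KO mice. Here 13 of the 40 genes were higher and 5 were lower, which is 32.5% and 12.5% of the list, where 16.3% and 6.92% of all genes were. The 13 covered the receptors *Cd14*, *Tlr7* and *Tlr13*, the adaptor and kinase genes *Ticam1* and *Irak2*, the subunits *Rela*, *Relb* and *Nfkb1*, the adhesion genes *Icam1* and *Vcam1*, and *Nlrp3*, *Nlrp12* and *Casp1*. The 5 were the IkappaB family genes *Nfkbia* and *Nfkbiz*, the cytokine *Il18* and the receptor genes *Il6ra* and *Tnfrsf1b*. After rescaling, 8 were higher and 6 lower, or 57.1% of the calls in place of 72.2%. There were 11 higher and 4 lower without EtOH-fed *Apoe* KO mouse 1, and without mouse 4 there were 7 and 5. Over all genes, the higher and lower calls went from 2446 and 1042 to 1656 and 1607 after rescaling. Calls over all genes without mouse 1 or mouse 4 are not given here.

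*Nlrp12* had the lowest adjusted p of the list, with 1107, 1604, 1173, 883 and 1541 scaled reads in pair-fed and 3922, 3900, 2596 and 3799 in EtOH-fed *Apoe* KO mice. Mouse 4 was the lowest of the EtOH-fed mice and still above all pair-fed mice, and the log2 fold change was 1.51 (SE 0.18, adjusted p = 9.16e-05 by limma). *Rela* had 1725, 1581, 1537, 1776 and 1562 in pair-fed *Apoe* KO mice, far below the EtOH-fed KO mice, with a log2 fold change of 0.72 (SE 0.09, adjusted p = 0.000162 by limma). *Icam1* had 375, 406, 450, 534 and 354 in pair-fed and 770, 654, 884 and 734 in EtOH-fed KO mice, again without overlap, and a log2 fold change of 0.85 (SE 0.14, adjusted p = 0.00105 by limma).

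*Cd14* had a log2 fold change of 1.20 (SE 0.28, adjusted p = 0.00801 by limma), *Tlr7* of 1.11 (SE 0.26, adjusted p = 0.00766 by limma) and *Tlr13* of 1.24 (SE 0.37, adjusted p = 0.0275 by limma). *Tlr7* had 45, 56, 51, 62 and 60 scaled reads in pair-fed KO mice, below each EtOH-fed KO mouse. *Ticam1* and *Irak2* had log2 fold changes of 0.66 (SE 0.14) and 0.56 (SE 0.14), with adjusted p-values of 0.00487 and 0.00931 by limma. In both genes the EtOH-fed mice lay above the pair-fed mice without overlap. *Tlr4* had 15, 41, 20, 65 and 51 scaled reads in pair-fed KO mice, overlapping the EtOH-fed mice, and a log2 fold change of 1.19 (SE 0.47, adjusted p = 0.0817 by limma). *Tlr2* had 0.95 (SE 0.36, adjusted p = 0.0741 by limma), and pair-fed KO mouse 4, with 277 scaled reads, exceeded every EtOH-fed KO mouse.

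A further 5 genes were called higher with the deposited scaling. *Nlrp3* had 53, 53, 34, 14 and 49 scaled reads in pair-fed KO mice, all below the EtOH-fed KO mice, and a log2 fold change of 1.22 (SE 0.38, adjusted p = 0.035 by limma). *Casp1* had 42, 58, 70, 107 and 118 in pair-fed and 148, 100, 176 and 173 in EtOH-fed KO mice, which overlapped, and a log2 fold change of 0.98 (SE 0.31, adjusted p = 0.0379 by limma). *Relb* had 0.78 (SE 0.23, adjusted p = 0.0279 by limma). *Vcam1* had 0.57 (SE 0.17, adjusted p = 0.0308 by limma), and *Nfkb1*, the gene of the p50 precursor, had 0.38 (SE 0.11, adjusted p = 0.0226 by limma). All 5 lost the call after rescaling, with adjusted p-values of 0.0526, 0.057, 0.0503, 0.0503 and 0.0782 by limma in the same order.

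The 5 genes that were lower include 2 genes of the IkappaB family. *Nfkbia* had 1915, 1647, 2495, 2378 and 2462 scaled reads in pair-fed and 1732, 1454, 1265 and 1411 in EtOH-fed *Apoe* KO mice, overlapping only through pair-fed mouse 2, and its log2 fold change was −0.56 (SE 0.14, adjusted p = 0.00967 by limma). *Nfkbiz*, a nuclear IkappaB that NF-kappaB itself induces, had 804, 446, 852, 823 and 705 in pair-fed and 492, 434, 553 and 423 in EtOH-fed KO mice, overlapping, and a log2 fold change of −0.58 (SE 0.18, adjusted p = 0.032 by limma). The call of *Nfkbiz* was lost in 8 of 16 alternatives (adjusted p up to 0.0895 by limma). *Il6ra*, the IL-6 receptor chain of hepatocytes, had 3644, 4110, 3587, 3319 and 4371 in pair-fed and 2614, 2611, 1797 and 2353 in EtOH-fed KO mice.

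The groups of *Il6ra* did not overlap, and its log2 fold change was −0.71 (SE 0.12, adjusted p = 0.0013 by limma). *Tnfrsf1b* had 1129, 1048, 1044 and 692 scaled reads in EtOH-fed KO mice, all below the pair-fed KO mice, and a log2 fold change of −0.67 (SE 0.16, adjusted p = 0.00771 by limma). *Il18* had 402, 229, 415, 369 and 364 in pair-fed KO mice, where mouse 2 overlapped the EtOH-fed mice, and a log2 fold change of −0.69 (SE 0.18, adjusted p = 0.0153 by limma). In WT mice the log2 fold changes after ethanol were −0.39 for *Nfkbia*, −0.51 for *Nfkbiz*, −0.49 for *Il6ra*, −0.41 for *Tnfrsf1b* and −0.54 for *Il18*, none called. The interactions of these 5 genes lay between −0.27 and −0.08, with adjusted p-values of at least 0.638 by limma. No difference between the genotypes was therefore shown for these 5 responses. *Tnf* had a log2 fold change of 2.05 (SE 0.93, adjusted p = 0.129 by limma) on very low values, and *Il1b* of 0.32 (SE 0.46, adjusted p = 0.667 by limma).

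**Figure D4:**
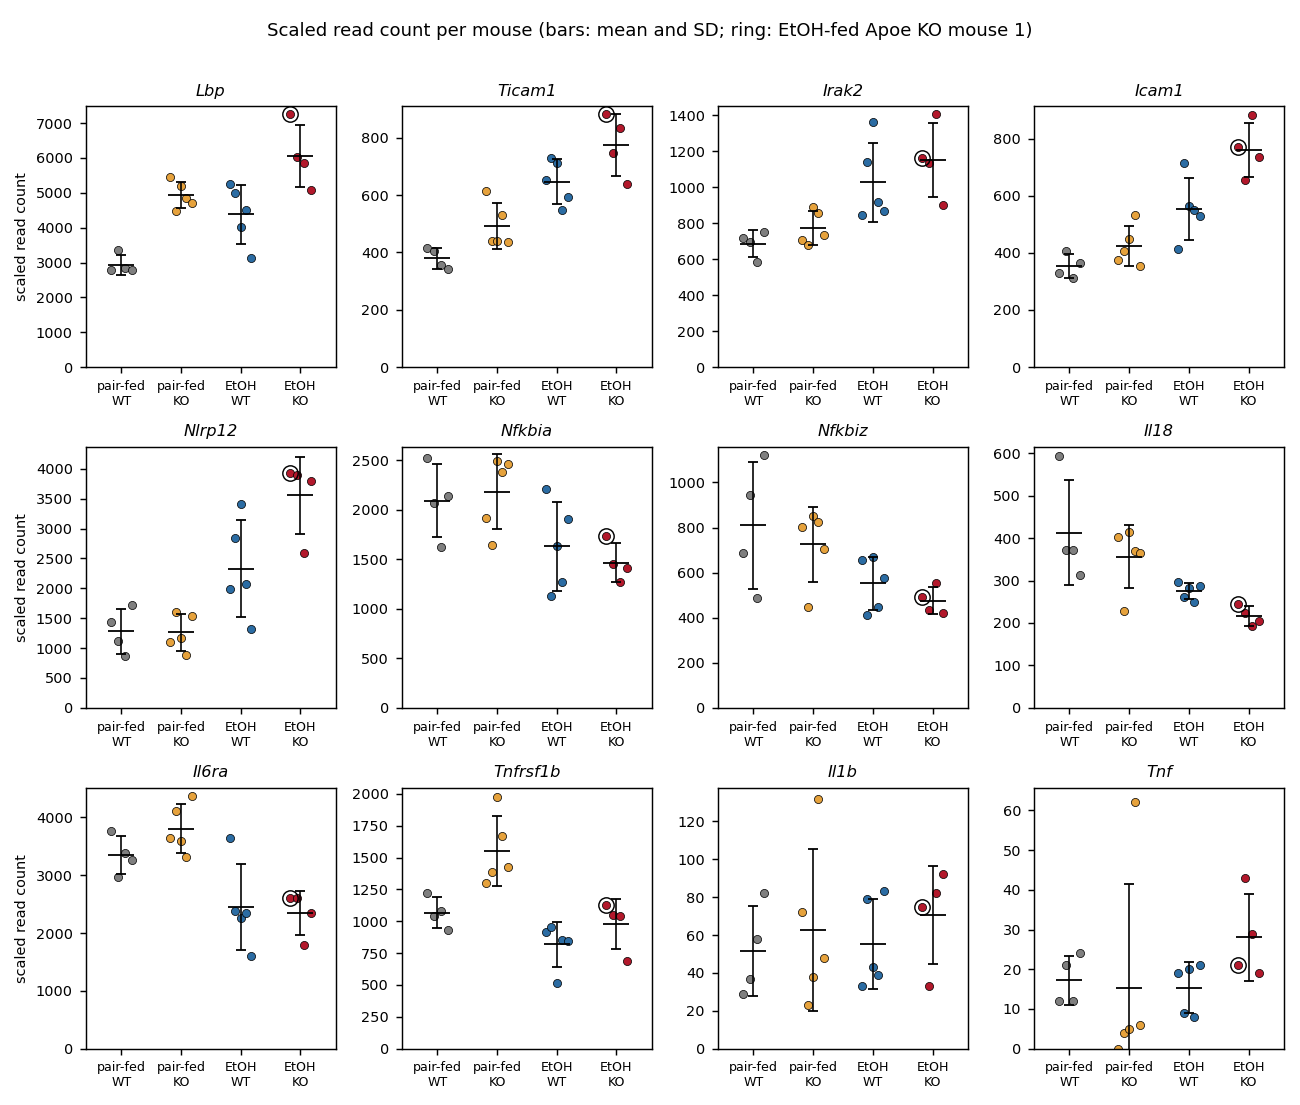
Scaled read count (y axis, linear from 0) of 12 genes in each of the 18 mice by group, with bars for the mean and SD (cut at 0 for *Tnf*) and a ring around EtOH-fed *Apoe* KO mouse 1. *Ticam1*, *Irak2* and *Icam1* are higher in the EtOH-fed mice of both genotypes, and *Il6ra* and *Tnfrsf1b* are lower in EtOH-fed than in pair-fed *Apoe* KO mice.

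The remaining genes did not pass the test between EtOH-fed and pair-fed *Apoe* KO mice. *Ly96* and *Traf6* were higher in every EtOH-fed KO mouse, with log2 fold changes of 0.54 and 0.24 and adjusted p-values of 0.102 and 0.121 by limma. *Lbp* had 0.29 (adjusted p = 0.0634 by limma), *Tlr9* had 0.97 (adjusted p = 0.343 by limma), and *Nfkb2*, *Pycard*, *Tnfaip2*, *Nfkbie*, *Tnfrsf1a* and *Tnfaip3* lay between 0.21 and 0.60. *Irak1*, *Myd88*, *Irak4* and *Gsdmd* had between 0.01 and 0.13 on the log2 scale. *Gsdmd* had 1126, 908, 1032, 972 and 1042 scaled reads in pair-fed and 1052, 824, 1200 and 1046 in EtOH-fed KO mice, with full overlap. *Tlr3*, *Tlr8*, *Birc3* and *Irak3* had −0.08, −0.09, −0.35 and −0.76, and *Birc3* was called lower after rescaling (adjusted p = 0.016 by limma).

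In the same comparison 7 of 13 Kupffer cell markers, 6 of 13 monocyte and macrophage markers, 11 of 12 endothelial markers and 8 of 11 stellate cell and fibroblast markers were higher, and 0 of these lists were lower. Of the 10 hepatocyte markers 2 were higher and 3 lower, and their part in the value of *Il6ra*, which hepatocytes express, was not tested. The summed endothelial markers were 7543 to 11326 in pair-fed and 13826 to 21506 in EtOH-fed *Apoe* KO mice. The part of these cell types in the 18 calls was not tested. Of the 113 further pathway genes, 19 were higher and 5 lower, which is 16.8% and 4.42% of them and close to the shares of all genes (16.3% and 6.92%). There were 14 and 10 after rescaling, and 12 were higher without EtOH-fed *Apoe* KO mouse 4. *Ikbkg* had the lowest adjusted p, with a log2 fold change of 1.06 (SE 0.11, adjusted p = 3.39e-05 by limma). *Socs3*, a feedback inhibitor of cytokine receptors, had −1.32 (SE 0.17, adjusted p = 0.000186 by limma), and the NLR gene *Nlrp6* had −0.90 (adjusted p = 0.000836 by limma). *Hsp90b1*, *Ifi204* and the scavenger receptor gene *Msr1* were higher, with log2 fold changes of 0.70, 1.20 and 1.07.

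The last comparison tested whether the response to ethanol differed between the genotypes, as the interaction of diet and genotype over all 18 mice. Of the 40 genes, 3 passed with a larger response in *Apoe* KO mice and 0 with a smaller one, which is 7.5% of the list, where 2.6% and 0.239% of all genes did. By an unadjusted p under 0.05, limma gave 9 and 0 of the 40, where 1919 (12.7%) and 532 (3.53%) of all 15052 genes passed. For *Cd14* the response was −0.52 in WT and 1.20 in *Apoe* KO mice on the log2 scale, and the difference was 1.72 (SE 0.37, adjusted p = 0.0156 by limma). For *Tlr7* it was −0.60 and 1.11, a difference of 1.71 (SE 0.39, adjusted p = 0.0208 by limma). For *Vcam1* it was −0.58 and 0.57, a difference of 1.15 (SE 0.25, adjusted p = 0.0165 by limma). In all 3 genes the EtOH-fed WT mice had the lowest mean and the EtOH-fed *Apoe* KO mice the highest mean of the 4 groups.

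The interaction of *Tlr13* was 1.94 (SE 0.56), which just missed the threshold (adjusted p = 0.0683 by limma). Those of *Tlr4*, *Nlrp3*, *Tnf* and *Il1b* were 1.25 (SE 0.58), 1.35 (SE 0.56), 2.24 (SE 1.09) and 0.20 (SE 0.63), with adjusted p-values of 0.292, 0.222, 0.314 and 0.91 by limma. For *Irak2* and *Ticam1*, which were higher after ethanol in both genotypes, the interaction was 0 (SE 0.21) and −0.11 (SE 0.19). For *Rela* it was 0.16 (SE 0.13, adjusted p = 0.586 by limma), so that no difference between the genotypes was shown for these 3 responses. Without EtOH-fed *Apoe* KO mouse 1 the number of genes that passed was 3. Without EtOH-fed *Apoe* KO mouse 4 it was 2, and without pair-fed WT mouse 4 it was 1, namely *Vcam1* (adjusted p = 0.0448 by limma). Calls over all genes in these fits are not given here.

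Of the Kupffer cell markers, 7 of 13 passed for a larger response in *Apoe* KO mice, and 4 of 13 monocyte and macrophage markers did, whereas 0 of 12 endothelial markers did by limma. The part of the macrophage markers in the interactions of *Cd14* and *Tlr7* was not tested. Of the 113 further pathway genes, 8 (7.08%) had a larger and 1 (0.885%) a smaller response in *Apoe* KO mice, against 2.6% and 0.239% of all genes. The lowest adjusted p belonged to the DNA sensor genes *Ifi204* and *Aim2*, both with an interaction of 1.57 on the log2 scale (adjusted p = 0.00298 and 0.0113 by limma), and to *Il18bp* with 1.01 (adjusted p = 0.0113 by limma). *Tgfb1*, *Tlr5* and *Hsp90b1* followed with 1.05, 1.40 and 0.66.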

How the data were processed

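Liver RNA of 18 mice (polyA selected) was sequenced. Per the labels, the authors used FastQC, Trimmomatic, HISAT2, SAMtools, featureCounts and DESeq2 on GRCm38; versions are not given in the sources used here. The deposited values are a signal, namely read counts scaled to a near-common total and rounded, and how they were scaled is not stated. The deposited columns of the authors' own comparison (log2 fold change, test score, p-value) were not used. The table has 15247 lines for 15052 genes, since 195 lines repeat a gene with the same values. No pair of mice in a group was a repeated library, as at least 98.7% of genes differed.

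Rescaled counts do not suit a count model, so log2(value + 1) was tested by limma 3.58.1 (R 4.3.3, trend) on the mice compared, or on all 18 for the interaction, with Benjamini-Hochberg adjustment over all genes. The code was tested on simulated data. Statistics are given for each listed gene that was called, for *Tlr4*, *Cd14*, *Tnf*, *Il1b* and *Nlrp3* throughout, and for at most 6 called genes of the further pathway lists per comparison. Alternatives were median-of-ratios size factors, pseudocounts of 0.1 and 10, a mean of at least 50, all 4 groups in the fit, array quality weights, a replicate block and leaving out each mouse. The genes and lists were chosen with earlier results of these data known. Figures used matplotlib 3.10.9.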

Additional observations from a re-analysis of the deposited data

Results flagged for a closer look

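The response to ethanol differed between the genotypes for *Cd14* (difference 1.72 on the log2 scale), *Tlr7* (1.71) and *Vcam1* (1.15) by the interaction test over all 18 mice.

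In 9 of the 160 sets of values (40 genes in 4 groups) 1 mouse lay far from the others of its group by Dixon's ratio of gap to range. About 8 such sets are expected by chance at 1 in 20. The ratio was taken on log2(value + 1), while the values printed beside it are scaled read counts. Among pair-fed WT mice, mouse 2 was low for *Tlr8* (3 against 34 to 35, ratio 0.987) and high for *Lbp* (3363 against 2772 to 2840, ratio 0.875), and mouse 1 was low for *Ly96* (23 against 94 to 97, ratio 0.978). In pair-fed *Apoe* KO mice, mouse 2 was low for *Il18* (229 against 364 to 415, ratio 0.779). Among EtOH-fed WT mice, mouse 1 was low for *Nfkb1* (767 against 971 to 1059, ratio 0.731), while mouse 3 was high for *Pycard* (50 against 21 to 23, ratio 0.897) and low for *Tnfrsf1b* (515 against 849 to 956, ratio 0.808). In EtOH-fed *Apoe* KO mice, mouse 4 was low for *Nlrp12* (2596 against 3799 to 3922, ratio 0.923) and mouse 5 was low for *Tnfrsf1b* (692 against 1044 to 1129, ratio 0.84).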

How the results depend on the processing

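None of the 37 called values of single genes changed direction in 614 alternatives, and 106 no longer passed the threshold. With size factors, 4 genes in place of 7 were higher between EtOH-fed genotypes, and 8 in place of 13 in EtOH-fed against pair-fed *Apoe* KO mice. Between pair-fed genotypes, 2 in place of 1 were higher with a pseudocount of 10, a mean of at least 50 or array quality weights, the last with 456 genes called in all against 261. In WT mice, 4 genes in place of 2 were lower after ethanol with all 4 groups in the fit. The causes were not tested.

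Leaving out 1 mouse gave 2 to 7 higher and 0 lower between EtOH-fed genotypes, and 1 to 2 higher and 0 lower between pair-fed genotypes. It gave 3 to 7 higher and 0 to 2 lower after ethanol in WT mice, 7 to 15 higher and 4 to 5 lower in *Apoe* KO mice, and 1 to 4 larger and 0 smaller responses in the interaction. Calls over all genes moved as well. They ran from 327 to 620 between EtOH-fed genotypes, against 706 with all mice. Between pair-fed genotypes they ran from 73 to 670, against 261 with all mice. For the other comparisons these totals are not given here.

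Equal replicate numbers did not pair the mice, since correlations of their deviations ran from −0.217 to 0.23. With the replicate block, 9 genes were higher and 0 lower between EtOH-fed genotypes (1083 genes called in all, against 706), and 1 higher between pair-fed genotypes (392 in all, against 261). In WT mice 5 were higher and 1 lower after ethanol, in *Apoe* KO mice 13 and 5, and the interaction passed for 2.

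Depth was resolved in 8 mice only, and values of *Tnf*, *Tlr8* and *Tlr9* rest on few reads.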
